A study of Mus musculus with 24 samples.

Results

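The comparison is between donor CD8+ T cells that carry a β-catenin transgene (Cat-Tg) and wild type (WT) donor CD8+ T cells, both taken from the spleen of allogeneic recipients 7 days after transplant. It rests on 3 Cat-Tg and 3 WT libraries, chosen by their labels for genotype, cell type and day, which are 6 of the 24 RNA libraries of the series. The donors were C57BL/6 mice, and the recipients were lethally irradiated BALB/c mice that also received WT bone marrow depleted of T cells. Donor CD4+ and CD8+ cells were mixed at equal numbers before transfer, so each CD8+ library comes from a recipient that also held CD4+ cells of the same genotype. Donor cells were recovered by sorting on H-2Kb, the class I molecule of the donor strain. The transgene encodes human β-catenin without its N-terminal part, the part through which the protein is normally marked for destruction, and it is carried in heterozygous mice. Founders were made in FVB embryos and then bred to C57BL/6. The number of backcrosses and the founder line behind these libraries are not given in the sources used here. The ages of the sequenced mice are not in the labels. The library names of all Cat-Tg samples share 1 prefix and those of all WT samples another, and what the prefixes mark is not given in the sources used here.

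β-catenin is the co-activator at the end of the canonical Wnt pathway. It binds the DNA-binding factors TCF-1, encoded by Tcf7, and LEF-1, encoded by Lef1, which in T cells are known for their part in thymic development and in naive and memory cells. After transfer into a mismatched host, donor CD8+ cells divide, take up glucose and amino acids, acquire granzymes and perforin, secrete chemokines and interferon-γ and migrate into tissues. The genes described here were therefore grouped by role, in 18 lists for effector, memory, exhaustion, trafficking and metabolic functions that together hold 361 genes, of which 351 were expressed highly enough to be tested.

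The label of the cells was checked first. Cd8b1, which encodes the β chain of the CD8 co-receptor, stood at 1809, 1968 and 1955 CPM (counts scaled to library size) in Cat-Tg replicates 1, 2 and 3, and at 1155, 1648 and 1366 CPM in the WT replicates. Cd8a was at 584, 643 and 681 CPM in Cat-Tg and 361, 685 and 535 CPM in WT, whereas Cd4 was at 0.954 to 4.50 CPM in all 6 libraries. CD8 genes were thus abundant and Cd4 near background in every library. Neither CD8 gene passed the test (adjusted p = 0.41 for Cd8b1 and 0.70 for Cd8a). Mouse Ctnnb1, the endogenous β-catenin gene, was at 157, 152 and 65.0 CPM in Cat-Tg and 59.7, 7.79 and 86.2 CPM in WT, and did not pass the test (log2 fold change 1.28, SE 0.68, adjusted p = 0.32). The groups overlapped. The transcript of the human transgene was not analysed here, and reads from it that match the mouse gene cannot be told apart from those of Ctnnb1, so this gene does not check the genotype.

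The libraries held 18184813 to 38523990 estimated counts, with the Cat-Tg libraries at 36882033 or more and the WT libraries at 32657005 or fewer. Beyond T cell genes, several marker lists of other cells differed between the groups. The summed erythroid markers were at 1478 to 2311 CPM in Cat-Tg and 160 to 894 in WT, the neutrophil markers at 273 to 711 against 62.4 to 124, and the macrophage and monocyte markers at 378 to 601 against 166 to 340. Hepatocyte markers went the other way, at 68.2 to 120 CPM in Cat-Tg and 181 to 649 in WT, with WT replicate 2 highest and 7 of the 17 genes called lower in Cat-Tg. The B cell list overlapped, at 779 to 830 CPM in Cat-Tg and 561 to 870 CPM in WT. The 5 NK cell markers summed to 65.2 to 91.2 CPM in Cat-Tg and 30.2 to 56.1 CPM in WT, without overlap. Eomes is 1 of these 5 and by itself was at 42.4 to 65.8 CPM in Cat-Tg and 21.1 to 36.8 CPM in WT. No gene of these lists was at 0 in all 6 libraries. Mitochondrial transcripts made up 0.643% to 1.63% of counts in Cat-Tg and 1.08% to 4.6% in WT. Ribosomal protein transcripts made up 4.71% to 5.16% in Cat-Tg and 6.42% to 11.6% in WT, without overlap. Lars2 was at 17560 to 33861 CPM in Cat-Tg and 60165 to 106885 CPM in WT, also without overlap. The part of these transcripts in the results below was not tested. In bulk libraries such as these, fewer cells of a type and less RNA per cell cannot be told apart.

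**Figure D1:**
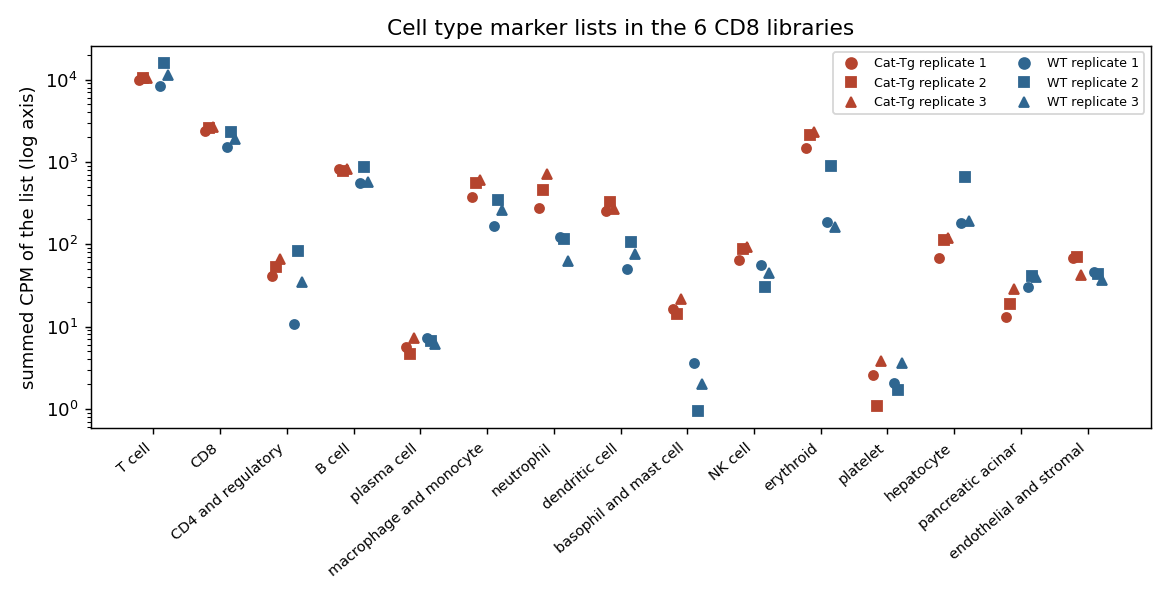
Summed CPM (log axis) of each cell type marker list in the 6 CD8 libraries; each point is 1 library, red for Cat-Tg and blue for WT, with the replicate given by the marker shape. Erythroid, neutrophil, dendritic and basophil lists are higher in every Cat-Tg library than in every WT library, and the hepatocyte list is lower.

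Differential expression was tested over 15967 genes with the edgeR quasi-likelihood test. A gene was called where its p-value adjusted by the Benjamini-Hochberg method was at most 0.05. The fit held all 12 CD8 libraries, before and after transplant, and gave each gene 1 estimate of spread shared by all groups. The SE and adjusted p therefore do not measure the spread of the WT libraries alone. In all, 263 genes were called, or 1.65% of those tested, of which 173 (1.08%) were higher in Cat-Tg and 90 (0.564%) were lower. When a change of 2 log2 units or more was also required, 121 genes were higher and 60 lower. The 3 Cat-Tg values did not overlap the 3 WT values for 25.4% of all tested genes, 12.7% in the higher and 12.6% in the lower direction. Among the 351 genes of the T cell lists, 9 were called: S1pr5, Stat2, Bhlhe40, Acly, Cpt1a and Slc2a3 were higher and Cox4i1, Xcl1 and Scd1 were lower in Cat-Tg. In 10 of the 18 lists no member was called. The counts for single lists below stand beside the shares of 1.08% called higher and 0.564% called lower over all tested genes. With so few members per list, nothing is read from these counts, including those of lists without a call.

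The calls depended on which libraries were fitted and on the scaling. When only the 6 compared libraries were fitted, 30 genes were called and S1pr5 alone remained of the 9 list genes. When replicate number entered as a block, 25 genes were called and Scd1 and Xcl1 remained. Without Cat-Tg replicate 1, 6 genes were called and only Scd1 remained of the 9 list genes. Without Cat-Tg replicate 2, 5 genes were called and none of the 9 remained. Without Cat-Tg replicate 3 the count was 549 and 8 of the 9 remained, and it was 407, 569 and 288 without WT replicates 1, 2 and 3, with 9, 9 and 7 of them. Scaling by the upper quartile in place of TMM moved the median log2 fold change of all genes by -0.34 and turned the balance of calls, with 35.2% of calls higher in Cat-Tg against 65.8%. TMM scaling without the marker genes moved the median by 0.13 and gave 79.0% higher.

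The called genes also differed in transcript length. The median transcript was 4778 bases long in the genes higher in Cat-Tg (middle range 3703 to 6499), 828 bases in the genes lower in Cat-Tg (610 to 2031) and 2614 bases over all tested genes. When the genes were ordered by length and split into 10 bins, the bin of the shortest genes held 48 lower and 2 higher calls. In the bin of the longest genes 4 were lower and 67 higher. When smooth trends over transcript length and GC content were removed from each library, 113 genes were called, 97 of them among the 263. Ctse, Scd1, Xcl1 and S1pr5 were still called there, and the other 6 called genes of the T cell lists were not. These 6 kept their direction there, with log2 fold changes of 1.88 for Stat2, 1.68 for Bhlhe40, 1.58 for Acly, 1.23 for Cpt1a, 1.10 for Slc2a3 and -1.20 for Cox4i1 (adjusted p = 0.074 to 0.12).

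**Figure D2:**
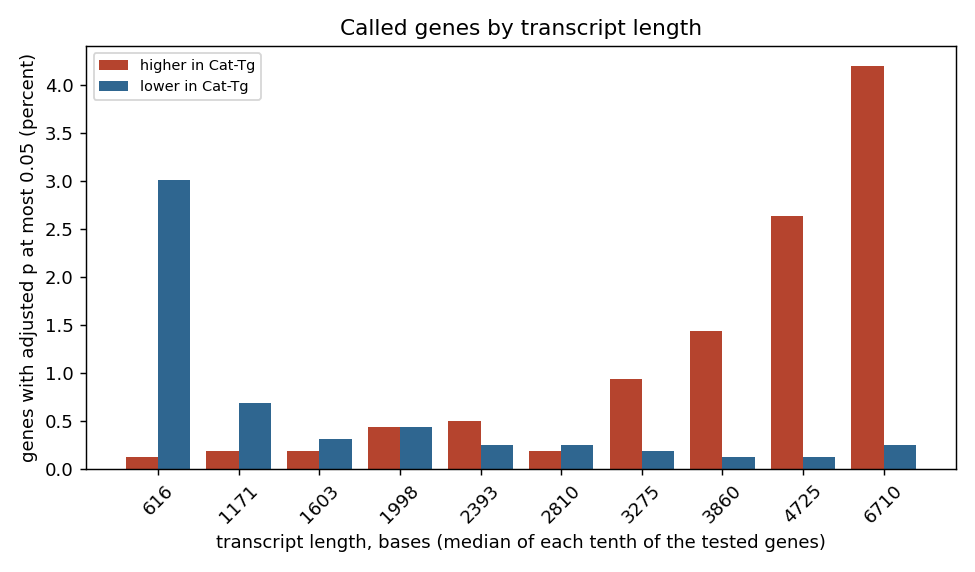
Percentage of tested genes called higher (red) or lower (blue) in Cat-Tg in each of 10 bins of genes ordered by transcript length in bases. The share called lower falls from 3.01% in the bin of shortest genes to 0.25% in that of the longest, and the share called higher rises from 0.125% to 4.20%.

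The gene that differed with the smallest adjusted p was Ctse, which encodes cathepsin E, an aspartic protease of the endosomal compartment. It stood at 654, 680 and 519 CPM in the Cat-Tg libraries and at 2.45, 6.26 and 5.43 CPM in the WT libraries. All 3 Cat-Tg libraries were far above every WT library, and the spread within either group was small beside the gap. The mean was 618 ± 86.8 CPM against 4.71 ± 2.0 CPM (SD, n = 3). The log2 fold change was 7.03 (SE 0.53, adjusted p = 1.2e-05). Per transcript length the level was 292 TPM (counts scaled to transcript length and library size) in Cat-Tg and 1.5 TPM in WT. Ctse was called under all 17 alternative settings, with an adjusted p of at most 0.0033. The erythroid, neutrophil and dendritic cell marker sums were also higher in every Cat-Tg library than in every WT library. Their part in the Ctse values was not tested.

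**Figure D3:**
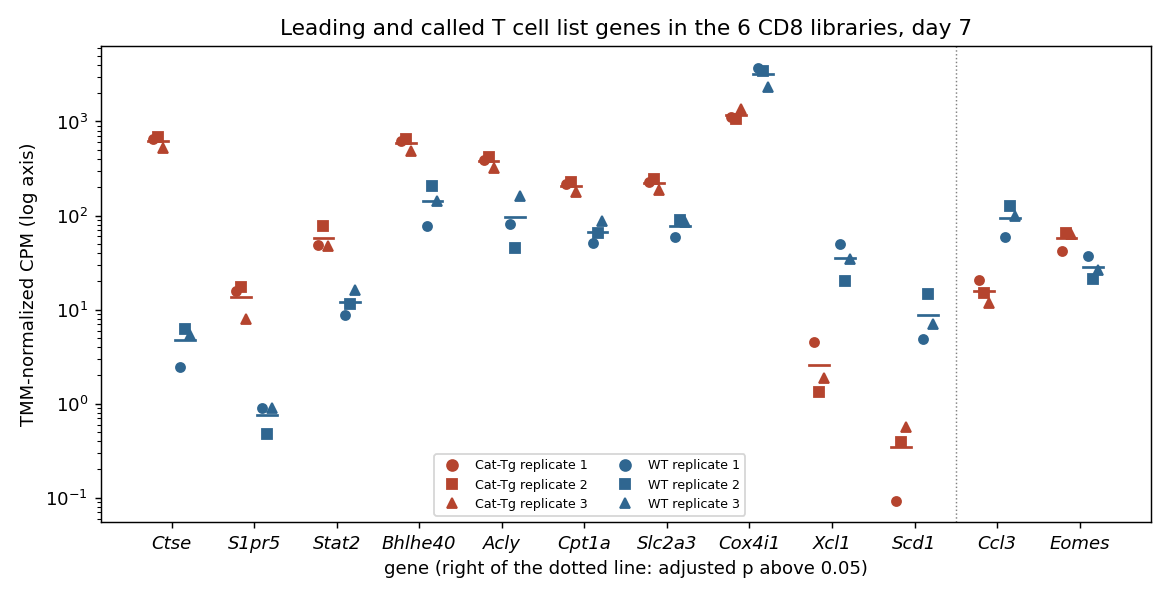
TMM-normalized CPM (log axis) of Ctse and the 9 called genes of the T cell lists, and of Ccl3 and Eomes to the right of the dotted line, which did not pass the test. Points are single libraries, horizontal bars are group means, red is Cat-Tg and blue is WT; the groups of 3 do not overlap for any of the 12 genes.

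Among 15 tested cytokines and chemokine ligands, 1 was called, in the lower direction, beside 0.564% of all tested genes called lower. Xcl1 encodes lymphotactin, with which activated CD8+ cells attract cross-presenting dendritic cells. It was at 4.50, 1.33 and 1.87 CPM in Cat-Tg and 50.2, 20.4 and 34.8 CPM in WT. Every WT library was above every Cat-Tg library, and the log2 fold change was -3.77 (SE 0.68, adjusted p = 0.017). Ccl3, which encodes the inflammatory chemokine MIP-1α, was at 20.8, 15.1 and 11.8 CPM against 59.1, 128 and 98.9 CPM. Its groups did not overlap either, with a log2 fold change of -2.58 (SE 0.64), but its adjusted p was 0.054. Ccl4, which encodes MIP-1β and lies beside Ccl3 in the chemokine cluster, was at 68.9 to 81.7 CPM in Cat-Tg and 202 to 449 CPM in WT (log2 fold change -2.09, adjusted p = 0.15). Ccl1 was at 5.99 to 8.27 against 21.3 to 59.8 CPM (-2.60, adjusted p = 0.13).

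The median log2 fold change of the cytokine list was -0.90, beside -0.18 over all tested genes. Without overlap, 5 of its members were lower and 1 higher, beside 12.6% and 12.7% of all tested genes. The member on the other side was Csf1, the macrophage growth factor, at 40.5 to 58.4 CPM in Cat-Tg and 10.7 to 11.6 CPM in WT (log2 fold change 2.22, SE 0.88, adjusted p = 0.20). Ccl5, which encodes RANTES and had the highest level of the list per transcript length (4315 TPM in Cat-Tg and 3155 TPM in WT), was at 1318 to 1485 CPM in Cat-Tg. In WT it was at 691, 2409 and 1523 CPM, a spread that enclosed the Cat-Tg values. Ifng, the main effector cytokine of these cells, was at 24.9, 25.1 and 15.3 CPM against 56.8, 21.1 and 27.8 CPM (log2 fold change -0.69, SE 0.74, adjusted p = 0.64). Il2, Il3, Il4, Il17a, Il21 and Areg did not reach the level needed for testing.

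None of the 21 tested genes of the cytotoxic list was called, beside 1.65% of all tested genes. Gzmb, the granzyme that triggers caspases in the target cell, was at 1399, 2701 and 1958 CPM in Cat-Tg and 3977, 1303 and 2208 CPM in WT. The WT libraries enclosed the Cat-Tg values (log2 fold change -0.31, SE 0.55, adjusted p = 0.79). Prf1, which encodes the pore former perforin, was at 580 to 771 CPM in Cat-Tg and at 196, 1018 and 817 CPM in WT (log2 fold change 0.00, SE 0.46). Nkg7, a granule membrane protein and the most abundant transcript of the list per length, was at 5337 to 5845 CPM in Cat-Tg and at 2759, 11600 and 7867 CPM in WT. The granzyme genes Gzme and Gzmf were at 0.681 CPM or less in Cat-Tg and 1.03 to 10.3 CPM in WT without passing the test (adjusted p = 0.32 and 0.17).

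Of 25 effector regulators and cytokine receptors, 1 was called, beside 1.65% of all tested genes. Bhlhe40, a transcription factor that T cells need for cytokine production and mitochondrial function, was at 624, 655 and 488 CPM in Cat-Tg and 77.3, 204 and 144 CPM in WT. The groups did not overlap, and the log2 fold change was 2.05 (SE 0.49, adjusted p = 0.048). Stat3, which relays signals of the IL-6, IL-10 and IL-21 receptors, was at 395 to 515 CPM against 98.1 to 220 CPM (1.43, adjusted p = 0.054). Il12rb2, the inducible chain of the IL-12 receptor, was at 58.4 to 98.8 CPM in Cat-Tg and 18.2, 0.641 and 9.29 CPM in WT (2.97, adjusted p = 0.095). Batf, an AP-1 family factor of effector differentiation, was at 253 to 288 CPM in Cat-Tg and 415 to 692 CPM in WT (-1.07, adjusted p = 0.093). Tbx21, the gene of T-bet, was at 640 to 854 CPM in Cat-Tg and 159, 837 and 405 CPM in WT, so the groups overlapped (0.68, adjusted p = 0.46). The list's median log2 fold change was 0.68, and 17 of 25 values were above 0, beside 6946 of all 15967 tested genes.

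No gene of the memory and quiescence list was called, although 7 of its 24 members were higher in Cat-Tg without overlap and none was lower without overlap, beside 12.7% and 12.6% of all tested genes. Eomes, the T-box factor of memory CD8+ cells, was at 42.4, 65.8 and 63.8 CPM in Cat-Tg and 36.8, 21.1 and 26.6 CPM in WT. The lowest Cat-Tg library lay just above the highest WT library, and the log2 fold change of 1.03 (SE 0.46) did not pass the test (adjusted p = 0.24). Eomes was called under none of the 17 alternatives. Lef1 was at 90.5 to 112 CPM against 28.2 to 52.8 CPM (1.32, SE 0.34, adjusted p = 0.062). Tcf7 was at 29.8 to 37.6 CPM against 8.07 to 21.8 CPM (0.98, adjusted p = 0.22). Bcl2, the survival factor that long-lived T cells keep at a high level, was at 80.1, 47.6 and 46.2 CPM against 24.8, 8.34 and 22.1 CPM (1.65, adjusted p = 0.069), and Satb1, a chromatin organizer, at 36.4 to 67.2 against 14.0 to 20.6 CPM (1.39, adjusted p = 0.082). The median log2 fold change of the list was 0.54.

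Among 15 tested Wnt pathway genes none was called. Axin2, the feedback inhibitor that is widely used as a readout of canonical signaling, was at 2.77, 1.94 and 2.47 CPM in Cat-Tg and 0.129, 0.0590 and 0.508 CPM in WT. The groups did not overlap but all 6 values were low, and the log2 fold change of 3.30 had an SE of 1.30 (adjusted p = 0.20). Rnf43, which removes Frizzled receptors from the surface, was at 4.46 to 8.77 CPM against 0.118 to 1.61 CPM (2.66, adjusted p = 0.21). Znrf3, which acts in the same way, was lower, at 1.90 to 2.13 against 3.29 to 6.57 CPM (-1.24, adjusted p = 0.28). Nkd1, Sp5 and Notum did not reach the level needed for testing.

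None of the 22 exhaustion and checkpoint genes was called, and their median log2 fold change was -0.12. Pdcd1, the gene of PD-1, was at 748, 820 and 1009 CPM in Cat-Tg and 824, 1927 and 1377 CPM in WT (log2 fold change -0.68, SE 0.35, adjusted p = 0.31). Lag3, which binds MHC class II, was at 100.1 to 145 CPM in Cat-Tg and at 65.4, 497 and 231 CPM in WT. Havcr2, the gene of TIM-3, was at 34.6 to 96.9 CPM against 25.6 to 109 CPM (0.04, SE 0.64). Tox, a nuclear factor of exhausted cells, was at 36.3 to 65.5 CPM against 19.6 to 43.4 CPM (0.62, adjusted p = 0.47). For all 4 genes the groups overlapped.

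The 14 NK cell type receptors and the 16 costimulatory and death receptors held no called gene. Klrc1, which encodes an inhibitory NKG2 chain, was at 162 to 195 CPM in Cat-Tg and 978, 71.2 and 388 CPM in WT. Klrd1, its CD94 partner, was at 69.2 to 188 CPM against 126 to 664 CPM. Tnfrsf9, the costimulatory receptor 4-1BB, was at 171 to 202 CPM in Cat-Tg and 378 to 675 CPM in WT, without overlap (log2 fold change -1.47, SE 0.43, adjusted p = 0.087). The 16 genes of the TCR complex and proximal signaling gave no call either. Lck, the kinase that starts TCR signaling and the most abundant of that list per length, was at 3162 to 3737 CPM in Cat-Tg and at 1475, 6183 and 4253 CPM in WT. Lcp2, the adaptor SLP-76, was at 233 to 366 CPM against 98.7 to 142 CPM (1.37, adjusted p = 0.065).

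Among 28 trafficking genes 1 was called, beside 1.08% of all tested genes called higher. Without overlap, 9 were higher in Cat-Tg and none lower, beside 12.7% and 12.6% of all tested genes. S1pr5, a sphingosine-1-phosphate receptor of effector CD8+ and NK cells that guides exit from tissue into blood, was at 15.7, 17.6 and 8.02 CPM in Cat-Tg and 0.903, 0.472 and 0.898 CPM in WT. The log2 fold change was 4.17 (SE 0.74, adjusted p = 0.017). The NK cell marker sum given above was higher in the same libraries, and its part in this value was not tested. S1pr1, the receptor by which lymphocytes leave lymph nodes, was at 453, 488 and 293 CPM against 130, 141 and 187 CPM (1.43, SE 0.35, adjusted p = 0.054). Cx3cr1, the fractalkine receptor of terminal effector cells, was at 104 to 151 CPM against 17.3 to 56.7 CPM (1.92, adjusted p = 0.097). The integrin genes Itgb1 (1.77, adjusted p = 0.079) and Itgal (1.46, adjusted p = 0.10) also did not overlap. Cxcr3, the receptor for interferon-induced chemokines, was at 539 to 588 CPM in Cat-Tg and at 127, 899 and 400 CPM in WT, and did not pass the test (0.24, adjusted p = 0.83). The list's median log2 fold change was 0.60.

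**Figure D4:**
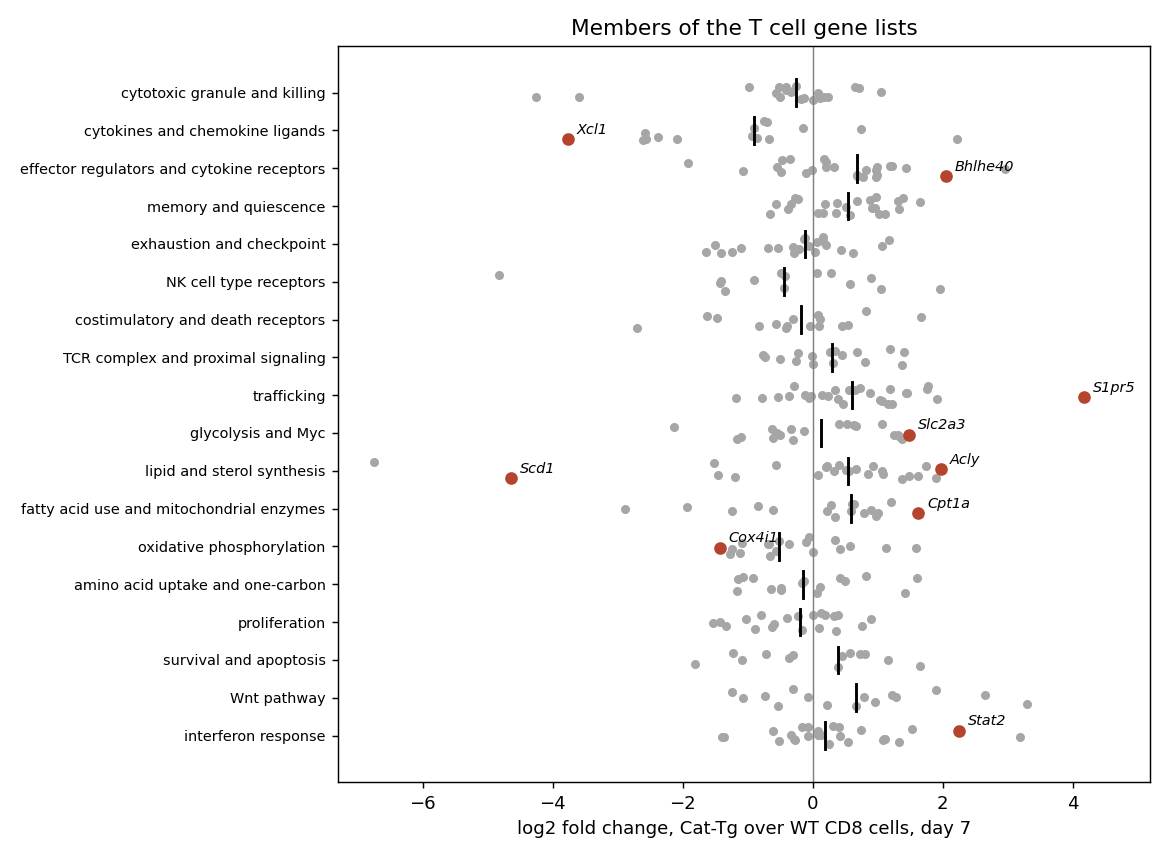
Log2 fold change of Cat-Tg over WT CD8 cells for each tested member of the 18 T cell lists. Red points are the 9 called genes, grey points did not pass the test and the black bar is the list's median, which lies between -0.90 for cytokines and chemokine ligands and 0.68 for effector regulators.

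In lipid and sterol synthesis, 1 of 24 genes was called higher and 1 lower, beside 1.08% and 0.564% of all tested genes. Scd1, the stearoyl-CoA desaturase that makes monounsaturated fatty acids, was at 0.0934, 0.393 and 0.565 CPM in Cat-Tg and 4.83, 14.5 and 7.09 CPM in WT. Every WT library was above every Cat-Tg library, all at a low level, and the log2 fold change was -4.64 (SE 0.65, adjusted p = 0.0077). Per transcript length the difference was smaller, at 0.404 TPM in Cat-Tg and 1.11 TPM in WT, and with length-scaled TPM the log2 fold change of Scd1 was -1.86 and not called (adjusted p = 0.094). Scd1 is also abundant in liver, and the summed hepatocyte markers given above were higher in the WT libraries. Its paralog Scd2 went the other way, at 20.2 to 34.9 CPM in Cat-Tg against 3.60 to 14.8 CPM in WT (1.62, adjusted p = 0.21). Acly, which makes cytosolic acetyl-CoA from citrate for lipid synthesis, was at 386, 423 and 322 CPM against 80.8, 44.7 and 162 CPM (1.97, SE 0.45, adjusted p = 0.041). Sqle, an enzyme of cholesterol synthesis, was at 32.6 to 37.4 CPM against 8.23 to 15.3 CPM (1.75, adjusted p = 0.080). The list's median was 0.54.

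Of 20 glycolysis and Myc genes, Slc2a3 was called. It encodes the glucose transporter GLUT3 and was at 225, 245 and 188 CPM in Cat-Tg and 59.5, 89.1 and 86.0 CPM in WT (log2 fold change 1.49, SE 0.34, adjusted p = 0.041). Pfkp, a phosphofructokinase, was at 983 to 1149 CPM against 315 to 522 CPM (1.37, adjusted p = 0.063). Ldha, which converts pyruvate to lactate, lay in the other direction without overlap, at 3121 to 3686 CPM in Cat-Tg and 5496 to 9067 CPM in WT (-1.10, adjusted p = 0.095). The list had no common direction, with 10 of 20 values above 0, beside 6946 of all 15967 tested genes. Among 17 genes of fatty acid use, Cpt1a was called. It encodes the carnitine transferase that admits long-chain fatty acids to mitochondria and was at 218, 226 and 180 CPM in Cat-Tg and 51.4, 64.8 and 86.8 CPM in WT (1.62, SE 0.38, adjusted p = 0.046).

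Of 19 oxidative phosphorylation genes, Cox4i1 was called, in the lower direction. This subunit of cytochrome c oxidase was at 1123, 1069 and 1348 CPM in Cat-Tg and 3742, 3471 and 2339 CPM in WT (log2 fold change -1.43, SE 0.33, adjusted p = 0.041). Sdhb, a succinate dehydrogenase subunit with an iron-sulfur cluster, was at 634 to 902 CPM against 1356 to 2254 CPM (-1.28, adjusted p = 0.065), whereas Sdha, the catalytic subunit of the same complex, was at 242 to 539 CPM against 51.0 to 200 CPM (1.6, adjusted p = 0.12). Thus the subunits of 1 complex stood on opposite sides. The median transcript length of this list was 1142 bases and its median log2 fold change -0.52, and no gene was called among 16 genes of amino acid uptake and one-carbon metabolism.

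No gene of proliferation (20 tested) or of survival and apoptosis (13 tested) was called, beside 1.65% of all tested genes. Mki67, the gene of the Ki-67 antigen, was at 212, 69.9 and 67.5 CPM in Cat-Tg and 188, 35.6 and 104 CPM in WT (log2 fold change 0.10, SE 0.66). Birc5, which encodes survivin and had the highest level of the proliferation list per length, was at 291 to 381 CPM against 362 to 409 CPM. Bax, a pore former of mitochondrial apoptosis, was at 211 to 222 CPM against 389 to 515 CPM, without overlap (-1.08, adjusted p = 0.12). In the interferon response list 1 of 26 genes was called, beside 1.65% of all tested genes. Stat2, a subunit of the factor that type I interferon activates, was at 49.0, 77.2 and 47.5 CPM in Cat-Tg and 8.77, 11.5 and 16 CPM in WT (2.26, SE 0.48, adjusted p = 0.036). Of the 26 values in this list, 16 were above 0, beside 6946 of all 15967 tested genes. Rsad2, an antiviral enzyme, was at 2.50 to 14.6 CPM against 0.544 to 1.18 CPM (3.20, adjusted p = 0.074), whereas Oas1a, a sensor of double-stranded RNA, was at 46.8 to 69.6 CPM against 123 to 160 CPM (-1.36, adjusted p = 0.13).

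The WT libraries differed from each other far more than the Cat-Tg libraries did. The Spearman correlation over tested genes was 0.968 between Cat-Tg replicates 1 and 2, and 0.946 and 0.948 between these and replicate 3. It was 0.812 between WT replicates 1 and 2, 0.902 between 1 and 3 and 0.890 between 2 and 3. On the main axis of variation among the 6 libraries, Cat-Tg replicates 1, 2 and 3 lay at -108, -123 and -14.0. The WT replicates lay at 92.7, 117 and 35.2 on it. WT replicate 3 was closer to the Cat-Tg libraries (0.919 to 0.932) than to either other WT library. Among 7825 genes with a mean of at least 10 CPM, the 3 WT values spanned more than 2 log2 units for 35.7% and the 3 Cat-Tg values for 2.29%. The median SD of log2(CPM + 1) was 0.83 in WT and 0.29 in Cat-Tg, and the WT SD was the larger for 84.4% of these genes. In the T cell lists the WT SD was larger for 300 of 351 genes.

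The spread had an order. WT replicate 3 lay between the other WT libraries for 66.6% of the 7825 genes, so that replicates 1 and 2 were the opposite ends. Gzma, a granzyme gene, was at 6456, 469 and 2140 CPM in WT replicates 1, 2 and 3, and Klrk1, the gene of NKG2D, was at 332, 14.6 and 122 CPM. Pcna, the sliding clamp of DNA replication, was at 1334, 172 and 599 CPM. These genes were highest in replicate 1 and lowest in replicate 2. Selplg, the P-selectin ligand, was at 702, 5949 and 3539 CPM, Gapdh, a glycolytic enzyme, at 1428, 9958 and 5255 CPM and Il2rb, the β chain of the IL-2 and IL-15 receptors, at 412, 3114 and 1817 CPM. These genes ran in the opposite order. In the Cat-Tg libraries the same 6 genes spanned 0.14 to 1.26 log2 units, against 2.80 to 4.42 in WT.

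The difference between WT replicates 1 and 2 varied with the base composition of the transcripts. Over the 15967 tested genes, the Spearman correlation of the log2 difference (replicate 2 minus replicate 1) with the GC percentage of the transcript was 0.56, and with transcript length it was -0.081. These are descriptions across genes of 1 pair of libraries, and genes are not independent replicates. For pairs of Cat-Tg libraries the correlation with GC was between -0.0031 and 0.16. Klrk1 has 42.3% GC and Gzma 44.6%, whereas Selplg has 58.5% and Gapdh 56.4%. By list, the NK cell type receptors, with the lowest median GC of 39.7%, were higher in replicate 1 for 13 of 14 genes, and the glycolysis and Myc genes, with 53.8%, were higher in replicate 2 for 15 of 20. The share of these list differences that goes with GC was not tested separately.

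**Figure D5:**
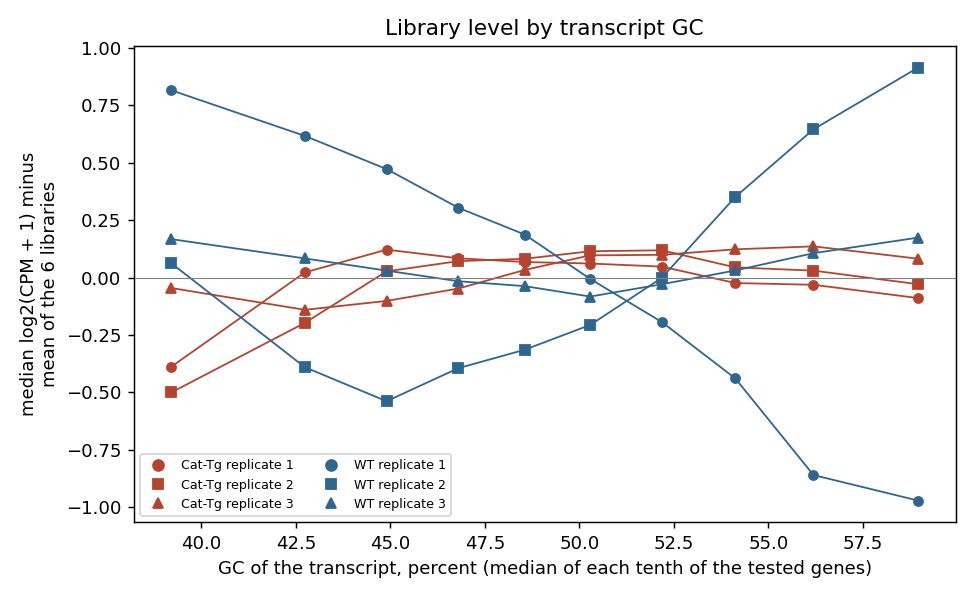
Median of log2(CPM + 1) minus the mean of the 6 libraries (vertical axis) in each of 10 bins of tested genes ordered by the GC percentage of the transcript (horizontal axis), with 1 line per library. WT replicate 1 falls from 0.82 at the lowest GC to -0.97 at the highest, WT replicate 2 ends at 0.91, and the Cat-Tg libraries end between -0.089 and 0.082.

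Over all protein-coding genes, the 5 with the widest WT range at a WT mean of at least 10 CPM were Rgs1, Zfp429, Ints1, Gstm1 and Ifit1bl1. Rgs1, a regulator of G-protein signaling in lymphocytes, was at 164, 2.42 and 49.6 CPM in WT and 9.29 to 14.5 CPM in Cat-Tg. Ints1, a subunit of the Integrator complex, was at 3.03, 180 and 70.7 CPM in WT and 126 to 157 CPM in Cat-Tg. Neither differed between the groups by the test (adjusted p = 0.16 and 0.65), and for both the WT range enclosed the Cat-Tg values.

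Outside the T cell lists, the marker genes and Ctse, the largest called differences without overlap were as follows. Alox15, a 12/15-lipoxygenase of macrophages and eosinophils, was at 7.28, 16.1 and 15.1 CPM in Cat-Tg, and the WT libraries held 3 counts in all, a ratio of summed levels of 246 (95% exact interval 84.1 to 1196, for counting error only). Chil3, a chitinase-like protein of myeloid cells, was at 46.8 to 72.4 CPM against 0.273 to 2.71 CPM (log2 fold change 5.68, adjusted p = 0.013). Vcl, which encodes the focal adhesion protein vinculin (4.79), Tmcc2 (4.58) and Smcr8 (4.24), completed the 5 highest. The neutrophil and macrophage marker sums given above were higher in the same libraries, and their part in these values was not tested. The 5 lowest were Hpx, Saa2, Mat1a and Saa1, which are made by liver and were at 0.875 CPM or less in Cat-Tg and 17.4 to 266 CPM in WT, and Gm10800, a repeat-derived gene model at 277 to 779 CPM in Cat-Tg and 1795, 22083 and 1716 CPM in WT. Gm10800 shares sequence with near-identical copies, so its count is uncertain. The log2 fold change of Gm10800 was -3.94, but -1.55 without WT replicate 2 (adjusted p = 0.054) and -1.94 with length and GC offsets (adjusted p = 0.20), and it was called in 8 of 17 alternatives.

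The same contrast in donor CD4+ cells from the series was used to ask which differences were larger in CD8+ cells. The difference of the log2 fold changes, CD8 minus CD4, was tested in 1 model over all 24 libraries. By the methods of the study, CD4+ and CD8+ cells were sorted from each mouse, so these libraries share animals, which the model did not use. With same-numbered CD8 and CD4 libraries as a block, an alternative chosen after seeing the data, the adjusted p was 0.0095 for Ctse, 0.22 for Cox4i1 and 0.19 for Tcf7. For Ctse it was 4.67 (SE 0.55, adjusted p = 0.00021), with Cat-Tg CD4+ cells at 118, 218 and 158 CPM and WT CD4+ cells at 29.0, 17.8 and 44.0 CPM. Thus Ctse was higher in the Cat-Tg libraries of both sorted populations, by more in the CD8+ libraries. Whether other cells in the libraries contributed to it was not tested. For Cox4i1 the difference was -1.81 (SE 0.41, adjusted p = 0.040), with a CD4 log2 fold change of 0.46 (SE 0.29). For Tcf7, chosen after its values were seen, it was 1.99 (SE 0.46, adjusted p = 0.045), with a CD4 log2 fold change of -0.92 (SE 0.33, adjusted p = 0.13). The Cox4i1 and Tcf7 calls were thus lost with the block. For Xcl1 (0.34, SE 0.96), Ccl3 (0.42, SE 0.73) and Scd1 (-0.64, SE 1.00) no difference between the cell types was detected, and all 3 were lower in Cat-Tg CD4+ cells too (adjusted p = 0.0064, 0.0063 and 0.0066). For Bhlhe40 (2.10, SE 0.55, adjusted p = 0.072), Slc2a3 (1.6, SE 0.40, adjusted p = 0.058), S1pr5 (3.55, SE 1.23, adjusted p = 0.18) and Eomes (1.65, SE 0.74, adjusted p = 0.35) the difference did not pass the test.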

How the data were processed

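The authors prepared cDNA from total RNA with the SMARTseq HT kit and libraries with Nextera XT. They deposited estimated counts and TPM per transcript from kallisto 0.46.2. Their notes list mm9. The index release is not given in the sources used here. Of 117497 transcripts, 116374 matched GENCODE M21 and were summed to 35855 genes. Counts were rounded. Genes above 1 CPM in at least 3 of the 12 CD8 libraries were fitted in edgeR 4.0.16 (TMM, robust quasi-likelihood) with all 4 CD8 groups, as the study fitted CD8 separately. The CPM use TMM scaling. Adjusted p-values are Benjamini-Hochberg values over all tested genes. The CD4 comparison used all 24 libraries. By the methods of the study, the 3 libraries of a group came from 3 recipients.

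The members and gene lists were chosen with earlier results of these data known. Named genes were the leading and check genes, called list members averaging at least 5 CPM in the higher group, the member with the highest TPM and the one with the widest WT range per list, and the 5 highest and lowest called genes overall averaging at least 10 CPM. Other list members were named after their values were seen. In simulated data with 200 changed genes, 48 were called and no unchanged gene was. The simulation gave all groups 1 spread per gene and held no trend over GC or length. It therefore does not measure false calls in these libraries. Ahsp and Xist were not analysed here. Transcript length and GC were averaged over a gene's transcripts by count, and their trends were removed with mgcv 1.9.3 offsets, an alternative chosen after seeing the data. Other alternatives used limma 3.58.1 and DESeq2 1.42.0. A count of 3 corresponds to 0.0779 to 0.165 CPM.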

Additional observations from a re-analysis of the deposited data

Results flagged for a closer look

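The Cat-Tg effect differed between CD8+ and CD4+ cells after transplant for 13 of the genes looked at by name. The difference itself was tested over all 24 libraries in edgeR. The share of all tested genes that passed is not given here, so nothing is read from the count of 13. For Ctse the log2 fold change in CD8+ minus that in CD4+ cells was 4.67 (SE 0.55, adjusted p = 0.00021). It was 4.77 (adjusted p = 0.0052) when only the 12 post-transplant libraries were fitted, and 4.72 (adjusted p = 0.0095) with the replicate block of same-numbered CD8 and CD4 libraries. For Cox4i1 it was -1.81 (SE 0.41, adjusted p = 0.040), with an adjusted p of 0.15 in the smaller fit and 0.22 with the block. The other 11 genes were chosen after their values were seen. The differences were 2.78 for Nfatc2, 2.41 for Dock2, 2.28 for Klf13, 2.22 for Myh9, 2.11 for Smad3, 2.01 for Dock8, 1.99 for Tcf7, 1.97 for Flna, 1.92 for Nfatc1, 1.76 for Rassf5 and 1.64 for Msn, with adjusted p of 0.0082 to 0.048. None of these 11 was called with the replicate block (adjusted p = 0.066 to 0.25), and of them only Nfatc2 was called with the 12 libraries (adjusted p = 0.022). With groups of 3 libraries, no test of single outlying samples was run.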

How the results depend on the processing

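Alternatives moved the counts of called genes, of called genes that changed by 2 log2 units or more, and of called T cell list genes (263, 181 and 9). DESeq2 gave 1357, 697 and 43, and no filter gave 550, 423 and 20. TMM without the marker genes gave 414 called genes and 17 list genes, and a minimum of 10 counts per library gave 422 and 18. Only the 6 post-transplant libraries gave 30, 30 and 1. Length and GC offsets gave 113, 84 and 4. limma-voom gave 16 list genes and length-scaled TPM 14. Leaving out single libraries gave 5 to 569, 5 to 441 and 0 to 26. Without Cat-Tg replicate 2, when no list gene was called, 1799 of all tested genes had an unadjusted p under 0.05. The replicate block gave 25, 25 and 2. Same-numbered Cat-Tg and WT libraries deviated from their group means with correlations of 0.099, -0.028 and -0.23. Same-numbered CD8 and CD4 libraries deviated with correlations of -0.14 to 0.16. With 3 libraries per group, such correlations cannot decide whether the numbers pair the samples. The cause of these shifts was not tested, apart from the fewer genes or samples that some settings hold by construction. Of the values for single named genes, 1747 kept their side of the threshold, 88 passed it and 260 lost it; none reversed a call. Ctse and, among genes chosen after their values were seen, Nfatc2 and Myh9 were called under all 17 alternatives. In the simulation 48 of 200 changed genes were called, so a gene that did not pass the test may still differ.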

Other observations

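Gene families outside the lists were looked at after their values were seen, and their members are given as counts. Over all tested genes 1.08% were called higher and 0.564% lower, and the median log2 fold change was -0.18. Since the families were picked on these values, nothing is read from their counts. Of the 5 NFAT transcription factor genes tested, a family whose Nfatc members relay calcium signals from the TCR, 3 were called higher in Cat-Tg CD8+ cells. Nfatc2 was at 144, 131 and 113 CPM in Cat-Tg and 15.9, 16.4 and 16.1 CPM in WT. The WT libraries agreed closely here, and the log2 fold change was 3.00 (SE 0.40, adjusted p = 0.0044). Nfatc1 was at 338 to 403 against 69.7 to 170 CPM (1.69, adjusted p = 0.045) and Nfatc3 at 82.6 to 151 against 23.2 to 48.3 CPM (1.83, adjusted p = 0.049), whereas Nfat5, which responds to osmotic stress, was at 3.90 to 5.36 against 5.69 to 19.2 CPM (-1.51, adjusted p = 0.18). Nfatc2 also differed between cell types, with a CD8 minus CD4 difference of 2.78 (SE 0.50, adjusted p = 0.0087), which was not called with same-numbered CD8 and CD4 libraries as a block (adjusted p = 0.066). Gata3, a factor of T cell development and type 2 responses, was at 124 to 191 CPM against 25.9 to 35.6 CPM (2.49, SE 0.39, adjusted p = 0.012). Among 10 Smad and TGF-β receptor genes, Smad3 (2.34, adjusted p = 0.024) and Tgfbr2 (1.75, adjusted p = 0.030) were called higher and none lower.

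Other families picked in the same way have short transcripts, and nothing is read from their counts either. Of 77 cytoplasmic ribosomal protein genes, 10 were called lower in Cat-Tg and none higher, with a median log2 fold change of -0.79 and a median transcript length of 725 bases. Of 59 replication-dependent histone genes, 5 were called lower and none higher (median -2.01, 530 bases); their transcripts are near-identical copies, so single members are uncertain. Of 56 Nduf and Uqc genes of mitochondrial complexes I and III, 4 were called lower and none higher (median -0.67, 798 bases). The 3 called NFAT genes have transcripts of 4596 to 6302 bases. With length and GC offsets Nfatc2 was called (adjusted p = 0.015), and Nfatc3 was called just under the threshold (0.04999). Nfatc1 was not called there (0.087). Gata3, with 3198 bases, was also called there (adjusted p = 0.020).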
